A study of Sus scrofa with 2 samples.

Results

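Unannotated transcripts of pig backfat were examined, that is, transcripts which carried a Novel_ identifier in place of a RefSeq accession and had no gene name. There were 28 of them among 2645 transcripts of the mRNA table, and the other 2617 were annotated RefSeq transcripts. For 23 of the 28 the authors' deposited table gave the most similar Swiss-Prot protein, which is used here as a working name, and 5 had none. Swiss-Prot is a curated protein collection, and a match names the protein that a translated transcript resembles, in whatever species that entry comes from. It does not show that the transcript is the pig gene of that name.

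Backfat, the subcutaneous fat along the back, had been taken from 3 intact male and 3 castrated male pigs of the Huainan breed, all aged 300 days and kept on a standard diet. Castration removes the testes and with them the main source of androgens. Each group was 1 sample with 1 value per transcript, in FPKM, a fragment count scaled to transcript length and to the number of mapped fragments. The variation between pigs is therefore unmeasured, and no test between the groups was made. How 3 pigs became 1 value, and the number of fragments behind an FPKM, are not given in the sources used here. Transcripts with q-values under 0.05 and no others make up the authors' deposited table. Each of the 28 was thus listed because it had been called different, and its direction and size are what the listing leaves to describe. With 1 sample per group, the authors' q-values cannot be read as measuring the variation between pigs.

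Fat tissue is made of adipocytes, which take up and store fatty acids as triglyceride, set in a collagen and laminin scaffold laid down by fibroblasts and by the adipocytes themselves. Each adipocyte is wrapped in a basement membrane of type IV collagen and laminin and in a mesh of type VI collagen. Proteases and their inhibitors remodel that scaffold as the cells grow. Of 12 adipocyte markers 8 were listed, all higher in the castrated group, with a summed level of 5437 FPKM in castrated and 1182 FPKM in intact backfat, while ADIPOQ, FABP4, LIPE and LPL were not among the listed transcripts. Of 8 fibroblast and progenitor markers 5 were listed, all lower in the castrated group, with a summed level of 1640 against 16080.5 FPKM, and COL3A1, DPT and LUM were not listed. Marker sums cover the listed transcripts alone and are not full gene levels. In bulk tissue fewer cells of a type and less RNA per cell cannot be told apart.

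The transcripts are ordered here by the roles of the proteins they resemble, an order made with their values known and not a list that was tested. In castrated pigs the 6 transcripts resembling COL4A6, COL6A6, LAMA2, HMCN1, RECK and PCSK6 were lower, and those resembling CD36, PEMT, ST3GAL5, SLC25A10 and SLC24A3 were higher. The 13 higher transcripts stood 2.75-fold to 26.4-fold above the intact value. The 15 lower ones stood 2.47-fold to 6.19-fold below it. None was listed at 0 in either group, whereas 547 annotated transcripts (20.9%) were. Of all listed transcripts 51.6% were listed as higher in castrated pigs and 48.4% as lower, so the 13 and 15 lay near the background.

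**Figure D1:**
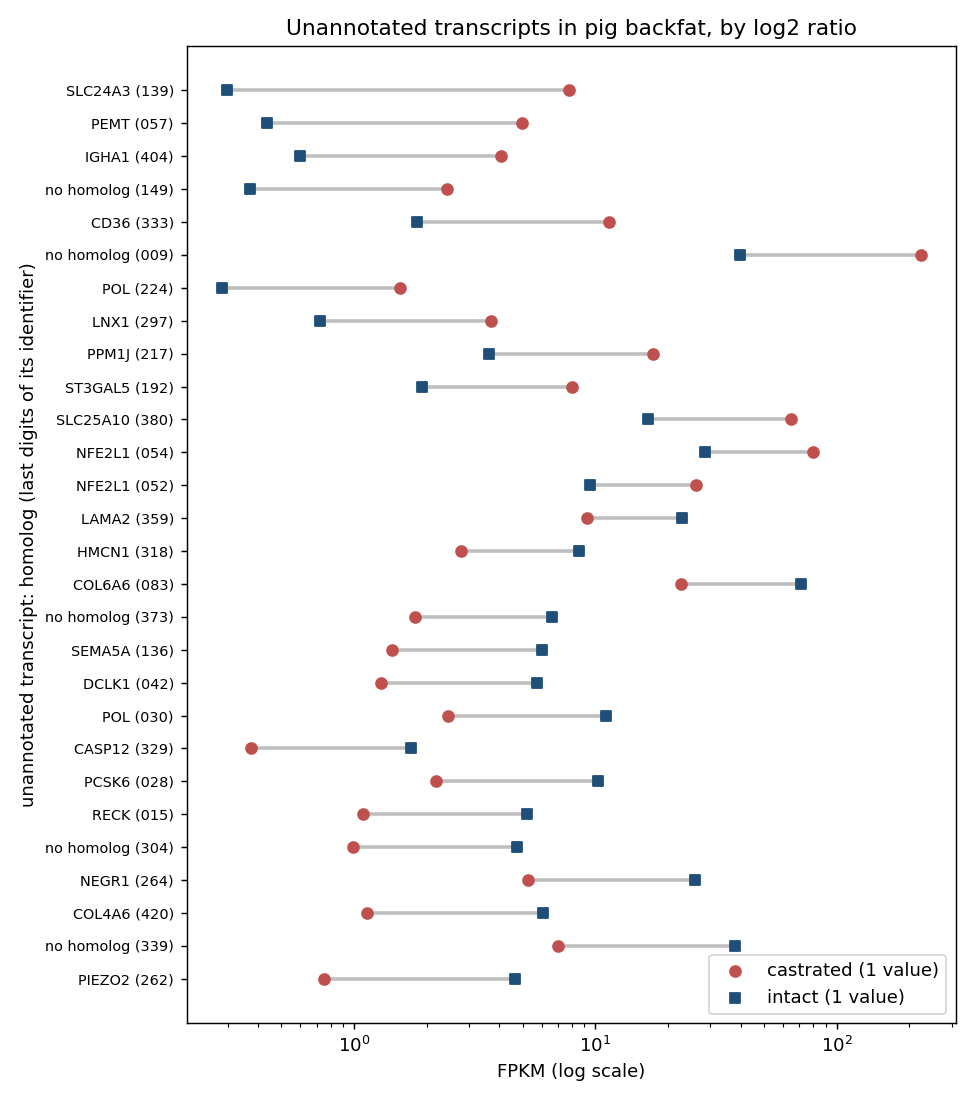
FPKM of the 28 unannotated transcripts in castrated (circles) and intact (squares) backfat on a log axis, 1 value per group, ordered by log2 ratio and labelled by homolog. The transcript resembling SLC24A3 has the widest gap (7.82 against 0.296 FPKM), and a transcript without homolog reaches the highest level (223 FPKM).

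A size rule described the changes in place of a test: values of log2(FPKM + 1) had to differ by 1 or more, a 2-fold difference, and the higher group had to reach 1 FPKM. It was passed by 26 of the 28, with 12 higher and 14 lower. Of all listed transcripts 82.5% passed, 42.6% higher and 39.9% lower. All 28 reached 1 FPKM in their higher group, which 309 annotated transcripts (11.8%) did not. The median log2 difference was -1.10 for the 28 and 0.67 for all listed transcripts. Since listed values lie away from 0, the sign of each median follows the direction with more transcripts. Among the higher transcripts alone the median log2 difference was 1.66, against 1.38 for all listed, and among the lower ones -1.57 against -1.36. These differences depend on level through the pseudocount. Log2 ratios without it, over transcripts above 0 in both groups, had medians of 2.45 against 1.95 for the higher. For the lower they were nearly alike, -2.20 against -2.13. The median log2 ratio of the 1313 listed transcripts that reached 1 FPKM in castrated and in intact backfat was 1.26. Centred on it, 4 transcripts passed as higher and 15 as lower. Since called transcripts alone are listed, that median does not measure how the libraries differ in scale. Centring lowers every log2 ratio by 1.26. The smallest log2 ratio of the 13 higher transcripts was 1.46, so none could change direction, and their kept direction is no support. With a pseudocount of 5, which damps low values, 12 of the 28 passed.

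**Figure D2:**
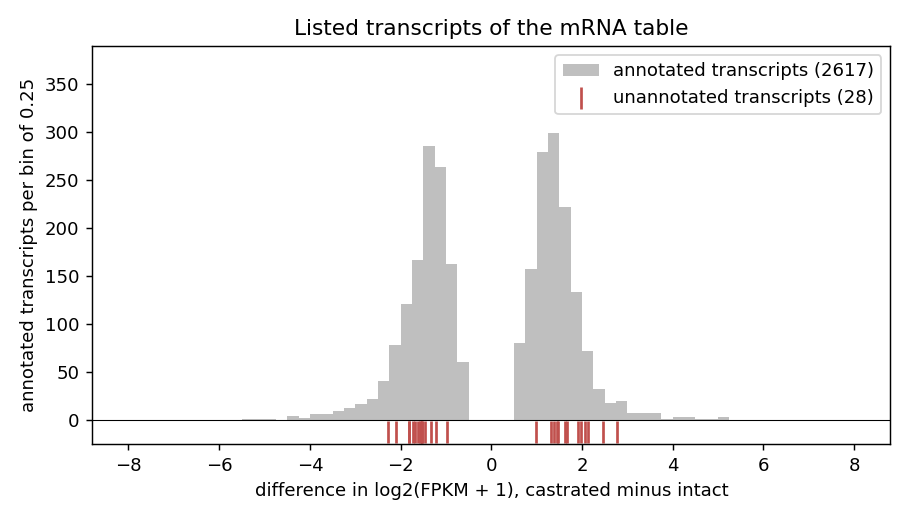
Differences in log2(FPKM + 1), castrated minus intact, of the 2617 annotated transcripts (grey bars, bins of 0.25) and the 28 unannotated ones (red ticks). The gap around 0 reflects that called transcripts alone are listed, and the 28 lie between -2.28 and 2.77, inside the range of the annotated ones.

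Structural proteins of the matrix were represented by transcripts resembling COL6A6, LAMA2, COL4A6 and HMCN1, all lower in the castrated group, as were 48.4% of all listed transcripts. The COL6A6-like transcript (Novel_000083, 1866 bases), named for a chain of type VI collagen, stood at 22.7 FPKM in castrated and 71.2 FPKM in intact backfat, 3.14-fold lower. It had the highest level of the 15 lower transcripts. The LAMA2-like transcript (Novel_000359, 2011 bases), named for the laminin alpha-2 chain of basement membranes, stood at 9.22 against 22.8 FPKM. Its 2.47-fold difference was the smallest of the 28. The COL4A6-like transcript (Novel_000420, 512 bases) bears the name of a type IV collagen chain of basement membranes and stood at 1.13 against 6.08 FPKM, 5.39-fold lower. Hemicentin-1, a large extracellular protein with many immunoglobulin-type domains, is encoded by HMCN1. The HMCN1-like transcript (Novel_000318, 1797 bases) stood at 2.79 against 8.59 FPKM, 3.08-fold lower. With a pseudocount of 5 the COL6A6-like transcript still passed the size rule, and the LAMA2-, COL4A6- and HMCN1-like ones did not.

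A pair of proteins that act on the matrix or on its precursors also had lower counterparts in castrated pigs. The RECK-like transcript (Novel_000015, 1464 bases), named for a membrane-anchored inhibitor of matrix metalloproteases, stood at 1.09 against 5.21 FPKM, 4.77-fold lower. The PCSK6-like transcript (Novel_000028, 380 bases), named for a proprotein convertase that cleaves secreted precursors, stood at 2.20 against 10.3 FPKM, 4.69-fold lower. With a pseudocount of 5 the PCSK6-like transcript still passed, and the RECK-like one did not, at a log2 difference of -0.74. With both, all 6 transcripts of matrix role were lower, a grouping made with their values known. Of all listed transcripts 48.4% were lower. Of the word groups set on protein names, the matrix group held COL4A6, COL6A6 and LAMA2, and 3 of 3 passed as lower. Among annotated transcripts whose symbol or domain description held a word of the same group, 82 of 118 (69.5%) passed as lower and 22 (18.6%) as higher. The fibroblast and progenitor markers given above were lower in the same group. Of 5 smooth muscle and pericyte markers 4 were listed, with CNN1, DES and MYH11 lower and RGS5 higher, and their summed level was 149 FPKM in castrated against 106 FPKM in intact backfat. EGFL7, at 4.48 against 13.1 FPKM, was the single listed marker of 4 for endothelium, and TCAP, at 1.32 against 4.76 FPKM, that of 5 for skeletal muscle. ACTA2, CDH5, PECAM1, VWF, ACTA1, CKM, MYH1 and TTN were not listed, and the part of these cell types in the matrix values was not tested.

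The authors' deposited lncRNA table added another transcript linked to COL6A6. Of its 18 long noncoding RNAs 1 had the symbol of a homolog among its target genes, TCONS_00465264 of 854 bases with COL6A6. The target was labelled cis, and no positions were given. This long noncoding RNA stood at 3.96 FPKM in castrated and 15.98 FPKM in intact backfat, 4.03-fold lower. The unannotated COL6A6-like transcript, the annotated COL6A6 transcript and the long noncoding RNA had the same direction. All come from the same libraries and may share reads or a locus, so this is a description and not a repeat measurement.

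Transcripts resembling CD36, PEMT and ST3GAL5, proteins that act on lipids, were each higher in castrated pigs. This set was made with its values known, and 51.6% of all listed transcripts were higher. The CD36-like transcript (Novel_000333, 546 bases), named for a scavenger receptor that takes up long-chain fatty acids, stood at 11.3 FPKM in castrated and 1.83 FPKM in intact backfat, 6.20-fold higher. PEMT makes phosphatidylcholine by methylating phosphatidylethanolamine. The PEMT-like transcript (Novel_000057, 462 bases) stood at 4.96 against 0.436 FPKM, 11.4-fold higher and second in fold among the 28. ST3GAL5 adds sialic acid to lactosylceramide and so makes the ganglioside GM3. The ST3GAL5-like transcript (Novel_000192, 468 bases) stood at 8.03 against 1.92 FPKM, 4.18-fold higher.

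A mitochondrial carrier and a cation exchanger also had higher counterparts in castrated pigs, while the channel PIEZO2 had a lower one. The transcript resembling SLC25A10 (Novel_000380, 498 bases), the mitochondrial dicarboxylate carrier that exchanges malate and succinate for phosphate, stood at 64.8 FPKM in castrated and 16.6 FPKM in intact backfat, 3.92-fold higher. The transcript resembling SLC24A3 (Novel_000139, 390 bases), a sodium, potassium and calcium exchanger, stood at 7.82 against 0.296 FPKM. At 26.4-fold it was the largest difference of the 28, and 98.6% of listed transcripts above 0 in both groups had a lower log2 ratio. Its intact value was low on a short transcript, and the number of fragments behind it is unknown. Under centring the CD36-, PEMT- and SLC24A3-like transcripts still passed as higher, and the SLC25A10- and ST3GAL5-like ones did not, with log2 differences of 0.67 and 0.57. With a pseudocount of 5 the PEMT- and ST3GAL5-like transcripts did not pass, at 0.87 and 0.91, and the PEMT-like one lay below a level minimum of 5 FPKM. The adipocyte markers were higher in the same group, and their part in these values was not tested.

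The word group of lipid metabolism held none of the 23 protein names, since neither platelet glycoprotein 4, the entry name of CD36, nor that of PEMT contains its words. Annotated transcripts with a word of that group passed as higher in 50 of 78 cases (64.1%) and as lower in 17 (21.8%). In the group of mitochondria and energy SLC25A10 was the single unannotated member, and 62 of 98 annotated transcripts (63.3%) passed as higher. In transporters and channels SLC24A3 was higher and PIEZO2 lower, beside 50 higher and 31 lower of 98 annotated transcripts.

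A transcription factor, a phosphatase and a ubiquitin ligase gave their names to transcripts that were higher in castrated pigs, and the kinase DCLK1 to a lower one. NFE2L1 encodes the factor, nuclear factor erythroid 2-related factor 1, which sits in the endoplasmic reticulum membrane until processed and raises the expression of proteasome genes. Apart from the LINE-1 polyprotein it was the single name carried by 2 unannotated transcripts, each under its own gene identifier. Novel_000054 (1341 bases, matched to the mouse protein) stood at 80.1 FPKM in castrated and 28.5 FPKM in intact backfat. Novel_000052 (1379 bases, matched to the human protein) stood at 26.3 against 9.54 FPKM. Their ratios were nearly equal, 2.81-fold and 2.75-fold higher in castrated pigs, and the first stood 3.05-fold above the second in castrated and 2.99-fold above it in intact backfat. Neither passed the size rule after centring, with log2 differences of 0.22 and 0.18. No annotated transcript with the symbol NFE2L1 was listed.

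The PPM1J-like transcript (Novel_000217, 1004 bases), named for a protein phosphatase of the magnesium-dependent family, stood at 17.3 FPKM in castrated and 3.64 FPKM in intact backfat, 4.75-fold higher. Its protein match had an e-value listed at 0, the strongest of the 23. LNX1 is a ubiquitin ligase that acts on the cell fate protein Numb. The LNX1-like transcript (Novel_000297, 680 bases) stood at 3.69 against 0.726 FPKM, 5.09-fold higher. After centring the PPM1J- and LNX1-like transcripts no longer passed, with log2 differences of 0.82 and 0.56, and with a pseudocount of 5 the LNX1-like one did not pass, at 0.60. The word group of kinases and phosphatases held PPM1J as higher and DCLK1 as lower, beside 91 higher and 56 lower of 196 annotated transcripts. LNX1 was the single member of the group of ubiquitin and protein turnover, where 50 of 129 annotated transcripts passed as higher and 59 as lower.

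Transcripts resembling NEGR1, PIEZO2, SEMA5A and DCLK1, which are known best from nerve and sensory cells, were each lower in castrated pigs. They were placed together with their values known, and none of the word groups covers that role. Of all listed transcripts 48.4% were lower. The marker lists held none for nerve, so a part of nerve cells in these values was not tested. The NEGR1-like transcript (Novel_000264, 359 bases), named for a membrane-anchored cell adhesion protein of the immunoglobulin superfamily, stood at 5.25 FPKM in castrated and 26.0 FPKM in intact backfat, 4.94-fold lower. The PIEZO2-like transcript (Novel_000262, 1636 bases), named for a cation channel opened by mechanical force, stood at 0.748 against 4.63 FPKM. Its 6.19-fold difference was the largest of the 15 lower transcripts. Semaphorin-5A, a guidance protein of growing axons and vessels, gave its name to Novel_000136 (766 bases), at 1.43 against 6.03 FPKM, 4.20-fold lower. DCLK1, a microtubule-associated kinase, gave its name to Novel_000042 (470 bases), at 1.30 against 5.72 FPKM, 4.41-fold lower. In the authors' deposited table the DCLK1-like transcript had the highest q-value of the 28, 0.0491. Of this set the NEGR1-like transcript alone passed the size rule with a pseudocount of 5.

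Immune and cell death names were a pair with opposite directions. The IGHA1-like transcript (Novel_000404, 586 bases), named for the constant region of the immunoglobulin A heavy chain that plasma cells secrete, stood at 4.05 FPKM in castrated and 0.599 FPKM in intact backfat, 6.77-fold higher. It matched the gorilla protein with an e-value of 9.55e-75. It did not pass the size rule after centring, at a log2 difference of 0.75, or with a pseudocount of 5, at 0.69, and it lay below a level minimum of 5 FPKM. The immune word group held no unannotated member, since Ig alpha-1 chain C region, the entry name of IGHA1, contains none of its words. Of the 151 annotated transcripts of that group 51 (33.8%) passed as higher and 72 (47.7%) as lower. Markers of T and NK lymphocytes were higher in the same group, with 3 of 4 listed and a summed level of 16.3 against 4.39 FPKM, as were 2 of 5 macrophage markers at 190 against 11.4 FPKM and 2 of 3 erythroid markers at 1390 against 131 FPKM. Most of the macrophage sum was SPP1, at 154 against 7.64 FPKM, and most of the erythroid sum was HBB, at 1383 against 130 FPKM. CD3D, CD163, CD68, CSF1R and HBA were not listed. The marker lists held none for plasma cells, and the part of any cell type in the IGHA1-like value was not tested. The CASP12-like transcript (Novel_000329, 1014 bases), matched to the human inactive caspase-12, stood at 0.376 against 1.73 FPKM. It was 4.60-fold lower but missed the size rule at a log2 difference of -0.99, since both values are low, and passed it after centring at -1.24.

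A pair of transcripts matched the polyprotein of the mouse LINE-1 retrotransposon, a mobile element present in many copies in mammalian genomes, and they had opposite directions. Novel_000030 had 22203 bases, more than any other transcript of the table, and stood at 2.45 FPKM in castrated and 11.1 FPKM in intact backfat, 4.53-fold lower. Novel_000224, with 5643 bases, stood at 1.55 against 0.282 FPKM, 5.48-fold higher, and missed the size rule at a log2 difference of 0.99. Reads from repeated elements can be placed at many copies, so these values are uncertain. The transposon words of the protein groups occurred in the symbol or description of 11 annotated transcripts, of which 6 passed as lower and 1 as higher.

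The 5 transcripts without a homolog included the highest level among the 28. Novel_000009, with 239 bases the shortest of the 28, stood at 223 FPKM in castrated and 39.9 FPKM in intact backfat, 5.59-fold higher. Its level in castrated pigs exceeded the higher-group level of 97.0% of listed transcripts. FPKM is scaled to length, and on 239 bases this level rests on an unknown number of fragments. Novel_000149 (2103 bases) stood at 2.42 against 0.372 FPKM, 6.52-fold higher. Novel_000339 (4426 bases) stood at 7.02 against 38.0 FPKM, 5.41-fold lower, and had the lowest q-value of the 28 in the authors' deposited table, 1.48e-06. Novel_000304 (7220 bases) stood at 0.987 against 4.72 FPKM and Novel_000373 (1174 bases) at 1.78 against 6.62 FPKM. All 5 passed the size rule, 2 higher and 3 lower. With a pseudocount of 5 Novel_000009 and Novel_000339 still passed, while Novel_000149, Novel_000304 and Novel_000373 did not, at log2 differences of 0.47, -0.70 and -0.78, and after centring Novel_000149 did not pass either, at 0.55.

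Where the symbol of a homolog also had annotated transcripts in the table, both pointed the same way. This was so for 11 of 11 symbols with 13 annotated transcripts, 3 symbols higher and 8 lower in castrated pigs. The remaining 10 of 21 distinct symbols had no annotated transcript listed, among them Pol of LINE-1. As a comparison, among 301 symbols with at least 2 annotated transcripts all of a symbol's transcripts pointed one way in 63.5%, and in 77.2% of 189 symbols when transcripts at 0 in a group were left out. These shares include symbols with more than 2 transcripts, where agreement of all is harder to reach than in a pair. Most of the 11 symbols were pairs, so the comparison is not like for like. Both kinds of transcript come from the same libraries and may share reads, and the gene identifiers differ, so the match is a description and not a repeat measurement.

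**Figure D3:**
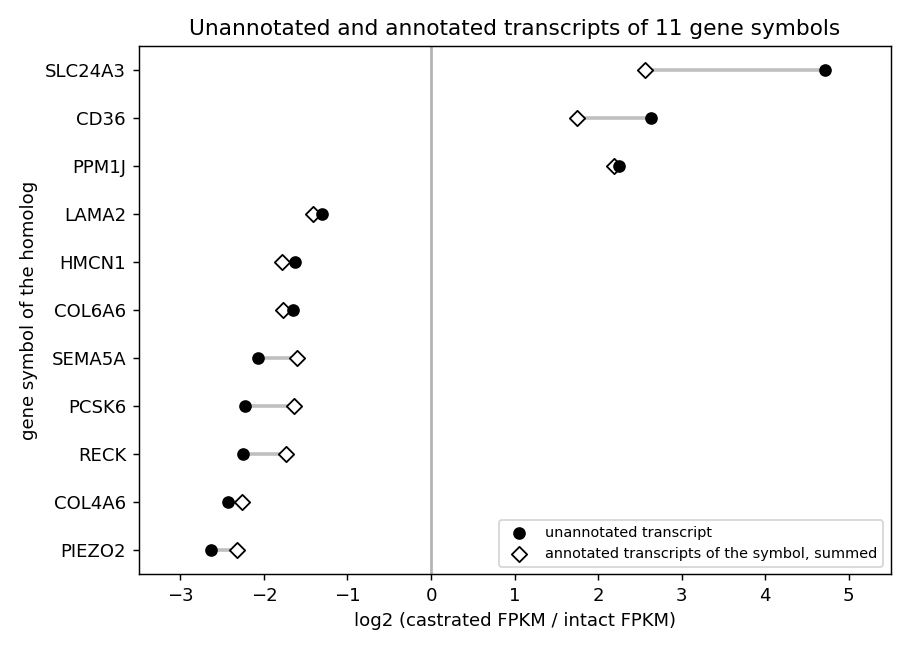
log2 ratio of castrated to intact FPKM for the unannotated transcript (filled circles) and for the annotated transcripts of the same symbol, summed (open diamonds), for 11 symbols. The pairs lie on the same side of 0 in every case, and SLC24A3 has the largest gap (4.72 against 2.56).

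Log2 ratios of the unannotated and the annotated transcripts differed by less than 0.5 for 7 of the 11 symbols, with a median absolute difference of 0.31. The closest pair was PPM1J, whose annotated transcript stood at 5.68 FPKM in castrated and 1.25 FPKM in intact backfat, 4.55-fold higher. For COL6A6 the annotated transcript stood at 26.2 against 89.0 FPKM, 3.40-fold lower. That of LAMA2 stood at 30.5 against 81.3 FPKM, 2.67-fold lower. These ratios lay close to those of their unannotated counterparts, while the pair of SLC24A3 lay furthest apart, by 2.16 on the log2 scale. Its annotated transcript stood at 11.3 against 1.91 FPKM, 5.90-fold higher.

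Other pairs fell between these ends. The CD36 sum stood at 29.2 FPKM in castrated and 8.74 FPKM in intact backfat, over a transcript at 26.3 against 8.74 FPKM and another at 2.91 FPKM that was listed at 0 in intact pigs. The 3.34-fold difference of that sum was smaller than the 6.20-fold of the unannotated transcript. RECK stood at 8.55 against 28.5 FPKM, 3.34-fold lower, and PCSK6 at 3.84 against 11.96 FPKM, 3.12-fold lower. Both annotated differences were smaller than those of the unannotated transcripts. HMCN1 stood at 3.41 against 11.7 FPKM and COL4A6 at 0.373 against 1.79 FPKM. SEMA5A stood at 1.53 against 4.66 FPKM, with a q-value of 0.0474 in the authors' deposited table. For PIEZO2 the table held transcripts under separate gene identifiers, at 1.86 against 8.48 FPKM and at 1.17 against 6.68 FPKM, both lower in castrated pigs like the unannotated one.

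On the FPKM scale, which is per length, the unannotated transcript stood below the annotated sum in both groups for 8 symbols and above it in both for 2, PPM1J and COL4A6. The PPM1J-like transcript was at 3.05 times the annotated level in castrated and 2.92 times in intact backfat, and the COL4A6-like one at 3.02 and 3.40 times. SEMA5A changed sides, at 0.939 times in castrated and 1.29 times in intact backfat. The lowest ratio was that of RECK in castrated pigs, at 0.128. For SLC24A3 the ratio was 0.694 in castrated and 0.155 in intact backfat.

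The 28 transcripts were shorter than the annotated ones and carried less annotation. Their median length was 1009 bases against 2406, and 13 of 28 (46.4%) were under 1000 bases, against 9.32% of annotated transcripts. For 9 of the 11 symbols the unannotated transcript was shorter than every annotated one. Median length was 586 bases for the 13 higher and 1464 bases for the 15 lower transcripts, and 2264 and 2546 bases for annotated transcripts of each direction. The level in the higher group had a median of 7.92 FPKM, against 4.94 FPKM for annotated transcripts. None of the 28 had a gene ontology or KEGG pathway term, which 87.6% of annotated transcripts had, so pathway counts made from those terms leave all 28 out.

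**Figure D4:**
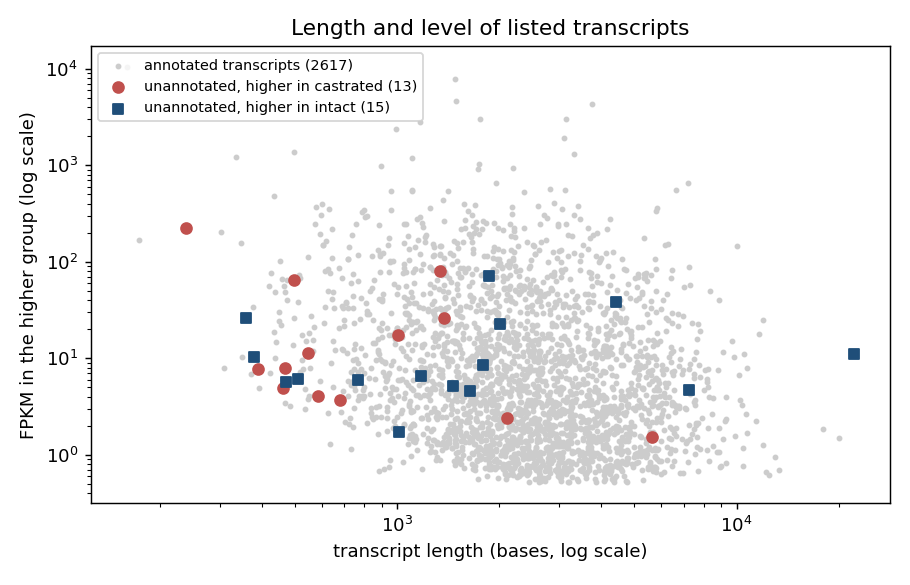
Transcript length against FPKM in the higher group, both on log axes, for annotated transcripts (grey) and the 28 unannotated ones (red circles higher in castrated, blue squares higher in intact). The unannotated transcripts span 239 to 22203 bases and 13 of them lie below 1000 bases.

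The strength of the protein matches varied widely, and the names are only as firm as the matches. E-values, the number of equally good matches that a search would give by accident, ran from a listed 0 for PPM1J and 9.29e-148 for Novel_000054 (NFE2L1) to 1.71e-08 for Novel_000083 (COL6A6). PEMT followed at 1.60e-09, SEMA5A at 1.14e-10, HMCN1 at 1.11e-10 and COL4A6 at 2.10e-11. Of these 5 weakest matches, 4 had an annotated transcript of the same symbol with the same direction, and PEMT had none listed. The same held for every symbol with an annotated transcript, strong matches included. It does not show that the names are right. Human entries were the best match for 13 transcripts, mouse for 5 and rat for 2 and, with IGHA1 of gorilla and NEGR1 of orangutan, the CD36 entry came from golden hamster. Of the 21 symbols 18 occurred in a RefSeq table of pig genes (assembly Sscrofa11.1, used for names only), and CASP12, IGHA1 and Pol did not.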

How the data were processed

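The members and lists were chosen with earlier results of these data known. The genome build Sscrofa10.2 and the tools TopHat2 and Cufflinks appear in the submitters' processing notes without versions or the step each served. FPKM per transcript and group were deposited, per the file headers. The authors also deposited log2 fold changes, without a pseudocount, and p-values and q-values. The homology search and its threshold are not given in the sources used here. Libraries were made from total RNA after removal of ribosomal RNA, with a strand-specific kit, per the labels' protocols. Members are the lines with a Novel_ identifier and "-" as gene name.

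Values were compared on log2(FPKM + 1) by the size rule, checked on simulated data, with Python 3.11.15 and pandas 2.3.3. Annotated lines with a LOC name took their RefSeq symbol by gene ID. Word groups were matched as whole words in Swiss-Prot names and, for annotated lines, in symbols and domain descriptions, whose wording differs. Of 13 word groups 7 held no member, and 12 named members fell in none. The naming rule (10 largest rises and falls, highest levels and group leaders among homologs, 3 rises and falls without one) gave 26 members, and the other 2, CASP12 and Novel_000224, were added so that all are shown. Alternatives were 2 other pseudocounts, other level minimums, a 4-fold rule, centring, and sums per homolog or gene identifier. The depth behind FPKM is unknown, so no interval is given. The circRNA table names no host gene and was not used.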

Additional observations from a re-analysis of the deposited data

How the results depend on the processing

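No paired analysis was possible because each group is 1 sample, and for the same reason no replicate could be left out. Of the settings tried, summing alone could change a direction in these data. Centring lowers every log2 ratio by 1.26, and the smallest among the 13 higher transcripts was 1.46. That these kept their direction was therefore fixed by their size and is no support. Summing per homolog merged the LINE-1 pair of opposite directions into 1 lower value. Of 26 past the size rule (12 higher, 14 lower), the number was 28 with a pseudocount of 0.1, 26 with no level minimum, 20 with a minimum of 5 FPKM, 25 summed per homolog and 26 per gene identifier. With a pseudocount of 5 it was 12 (7 higher, 5 lower), since low values are damped, and with a 4-fold rule 6 (4 higher, 2 lower). After centring 4 passed as higher. The median log2 difference of -1.10 became -1.44 with a pseudocount of 0.1, -0.51 with 5, -1.40 with a minimum of 5 FPKM and -1.63 after centring. In the matrix word group 3 transcripts passed as lower, 1 with a pseudocount of 5 and 0 with a 4-fold rule. Short transcripts at any FPKM rest on an unknown number of fragments, and 1 value per group leaves the variation between pigs unmeasured.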
